A study of Mus musculus with 12 samples.

Results

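The expression of 10 genes of skin antimicrobial defence was followed in the transcriptome of dorsal skin from mice with 2,4-dinitrochlorobenzene (DNCB)-induced dermatitis. They were taken by gene symbol, 10 of the 36400 genes in the deposited table, and fall by role into 5 beta-defensins (Defb1, Defb3, Defb4, Defb6 and Defb14), 4 myeloid granule proteins (Camp, Ltf, Ngp and Lyz2) and 1 protease inhibitor, Slpi. All 10 passed the minimum for testing, an average of 0.1 FPKM across the 12 libraries. FPKM is the fragment count per kilobase of transcript per unit of library size, so levels can be compared between genes. Ltf reached 0.1 FPKM only through the DNCB group, since its mean was lower in each of the other 3 groups.

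RNA came from the dorsal skin of female Balb/C mice, 6 weeks old at purchase, with 3 mice in each of 4 groups and collection on day 30. Control mice had their backs shaved and received only the vehicle, acetone and olive oil at 3:1. The DNCB group was sensitized with 1% DNCB and challenged with 0.5% DNCB, and both groups given mesenchymal stem cells (MSCs) received the same DNCB. MSCs of human umbilical cord were given at 2000000 cells per injection in 4 injections from day 13 to day 25, as 100 µL subcutaneously beside the lesion in the scMSC group, or shared between 50 µL beside the lesion and 50 µL by tail vein in the scivMSC group. The sources used here describe no injection of medium alone for control or DNCB mice, so cells and injection cannot be told apart. The total of estimated counts per library ran from 63877153 to 75134001, and replicates of a group correlated at 0.944 to 0.967 over genes on the log2 scale.

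Beta-defensins are small cationic peptides held together by disulphide bonds, which epithelial cells secrete and which damage microbial membranes and attract immune cells. Some are made constitutively and others are induced in keratinocytes by cytokines and microbial products. Camp, Ltf and Ngp are made by neutrophil precursors in the bone marrow and packed into secondary granules before the cell leaves for the tissue, whereas Lyz2 is made by macrophages as well as neutrophils. SLPI is released by epithelia and neutrophils and inhibits neutrophil elastase and cathepsin G.

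In bulk skin, fewer cells of a type and less RNA per cell cannot be told apart. The summed level of 12 neutrophil markers was 120 to 208 FPKM in control, 2574 to 3569 in DNCB, 16.0 to 67.0 in scMSC and 34.6 to 183 in scivMSC skin. S100a8 and S100a9, which keratinocytes make as well and which are also among the other epithelial antimicrobial genes described further on, made up 83.5% or more of this sum in every library. Without them, a choice made after the values were seen, the other 10 markers summed to 2.71 to 6.07 FPKM in control, 212 to 287 in DNCB, 2.64 to 4.62 in scMSC and 5.02 to 18.1 in scivMSC skin, so that control and scMSC overlapped. The defining marker Ly6g was at 0 in all 9 libraries outside the DNCB group and at 1.83 to 4.93 FPKM within it. Summed macrophage markers (12 genes) ran from 143 to 503 FPKM in control, 630 to 691 in DNCB, 152 to 309 in scMSC and 71.3 to 345 in scivMSC skin, where control replicate 3 was the highest of its group and scivMSC replicate 3 the lowest. The keratinocyte markers Krt5 and Krt14 were at 733 FPKM or more in all 12 libraries and rose in DNCB against control, by 1.27 ± 0.22 and 2.65 ± 0.39 on the log2 scale (edgeR adjusted p = 0.00278 and 0.00127). Keratinocyte markers (12 genes) summed to 7018 to 13560 FPKM in control, 14620 to 21100 in DNCB, 6179 to 10970 in scMSC and 10210 to 17120 in scivMSC skin. Of these 12, 3 rose, 2 fell (Lor and Krt15) and 7 were not called in DNCB against control. Krt14 alone was at 737 to 1202 FPKM in control and 5530 to 7186 in DNCB, a large part of the difference in the sum. The 6 stress keratinocyte genes (such as Krt6a and Krt16) summed to 569 to 686 FPKM in control, 7688 to 9576 in DNCB, 707 to 1490 in scMSC and 1203 to 4882 in scivMSC skin. The part of these changes in cell makeup in the results on the 10 genes was not tested.

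DNCB against control skin asked how the sensitizer altered the defence genes. Defb1, Ltf, Ngp and Slpi rose and Defb6 fell, 5 of 10 members, where 14.2% of the 21890 genes tested were called (6.59% higher and 7.57% lower). Ltf passed the minimum for testing only through DNCB, where it was high, so the filter favoured its call. The test was the quasi-likelihood test of edgeR, fitted to all genes with the 4 groups in 1 model, and a call needs both an adjusted p (Benjamini-Hochberg) below 0.05 and a log2 fold change beyond 1 in size. Without DNCB replicate 1 the number of members called was 3 of the 9 then tested, and it was 7 with counts divided by 4 or in a fit of the 6 libraries alone, with Camp and Defb3 added. Over all genes these fits called 2460, 3227 and 3257 in that order, in place of 3098. Tests of 3 libraries against 3 cannot give an exact two-sided permutation p below 0.10, so calls rest on the spread that edgeR shares across genes. Over all genes 1442 were called higher and 1656 lower, or 2020 and 1301 with scaling by library size alone, which moved the median log2 fold change of all genes from 0.02 to 0.20 and turned no member's direction in this comparison. The median log2 fold change was 1.77 for the 5 beta-defensins, 1.24 for the 4 without Defb4, and 3.72 for the 4 granule proteins, Ltf among them.

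**Figure D1:**
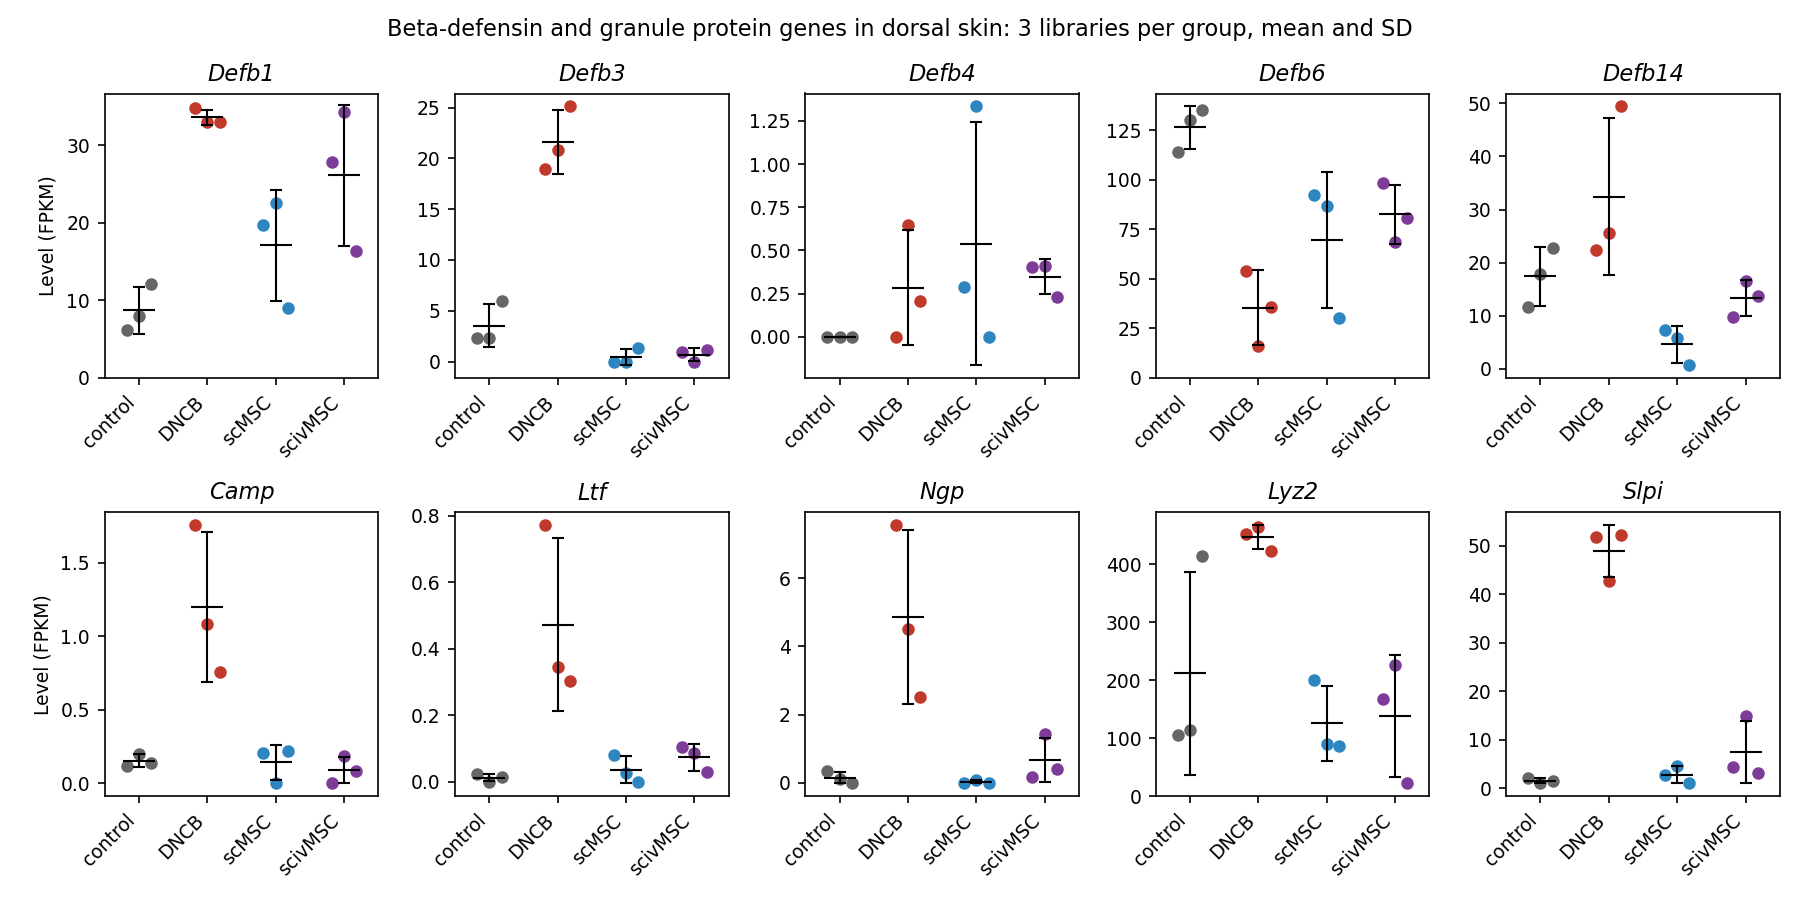
FPKM of the 10 genes in each of the 12 libraries (points), with the group mean and SD (bars, n = 3), on a linear axis for each gene. Defb6 was highest in control skin, while the 3 DNCB libraries were the highest for Defb3, Camp, Ltf, Ngp, Lyz2 and Slpi, and the 3 granule genes Camp, Ltf and Ngp stayed under 8 FPKM in all libraries.

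The beta-defensins lie in order on the plus strand of chromosome 8 (GRCm38, GENCODE M21), each with 2 exons: Defb14 at chr8:19194357-19195212, Defb4 at chr8:19198706-19201545, Defb6 at chr8:19225478-19228209 and Defb3 at chr8:19293360-19295291. The starts of these 4 span 99.0 kb, and Defb1 lies 2582 kb from Defb14 at chr8:21776599-21795185. Values are for whole genes, and no 50-base stretch of Defb1, Defb3, Defb6 or Defb14 transcripts occurs in another gene of the annotation. For Defb4, 5.68% of such stretches are shared with Defb8, so its reads could be split with that gene.

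Defb6 was the most abundant beta-defensin of control skin. It is a defensin known from skeletal muscle and epithelia, and its levels were 114, 130 and 135 FPKM in control, 54.1, 16.2 and 36.0 in DNCB, 92.2, 86.7 and 30.3 in scMSC and 98.4, 68.4 and 80.9 in scivMSC skin. All 3 DNCB libraries were below all controls, and the DNCB libraries overlapped with scMSC through scMSC replicate 3 but not with scivMSC. In DNCB against control, Defb6 fell by 2.02 ± 0.46 on the log2 scale (SE; 4.06-fold lower; edgeR adjusted p = 0.00870, n = 3 per group). Relative to DNCB it was 1.01 ± 0.44 higher on the log2 scale in scMSC (adjusted p = 0.182) and 1.23 ± 0.45 higher in scivMSC (adjusted p = 0.123), neither of them called. Without scMSC replicate 3 the difference between scMSC and DNCB was 1.38, with an edgeR adjusted p of 0.0487, and DESeq2 called scivMSC against DNCB (1.21, adjusted p = 0.0483). The 4 skeletal muscle markers summed to 11720 to 17160 FPKM in control, 3150 to 4737 in DNCB, 3312 to 7140 in scMSC and 3611 to 8490 in scivMSC skin. Acta1, Ckm and Tnnt3 fell in DNCB with Defb6, none of the 4 was called in either MSC group against DNCB, and the part of muscle in the Defb6 level was not tested.

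Defb3, a beta-defensin induced in mouse epithelia by infection, lies downstream of Defb6 in the same cluster. Its group mean was highest in DNCB, where that of Defb6 was lowest. Single libraries did not all follow this, as scMSC replicate 3 had 30.3 FPKM of Defb6 and 1.38 of Defb3. Levels of Defb3 were 2.31, 2.34 and 5.95 FPKM in control, 19.0, 20.8 and 25.1 in DNCB, 0, 0 and 1.38 in scMSC and 0.914, 0 and 1.13 in scivMSC skin. The DNCB libraries stood above all 9 others. The scMSC group held about 8 fragments of Defb3 in all and the scivMSC group about 11, so depth limits their levels. The log2 fold change of DNCB against control was 2.45 ± 1.28 (adjusted p = 0.190), which did not pass the test. It did pass with counts divided by 4 (2.42, edgeR adjusted p = 0.0499), in a fit of the 6 libraries alone (2.43, edgeR adjusted p = 0.00684) and in limma with pseudocount 1 (2.40, adjusted p = 0.00189). Counting error alone gives a ratio of 6.23 (95% exact interval 4.65 to 8.50, about 357 fragments against 52), and the SE of the fit covers the spread between libraries as well. In scMSC against DNCB, Defb3 fell by 5.51 ± 1.5 on the log2 scale (adjusted p = 0.0352), and its difference in scivMSC against DNCB, -4.93 ± 1.45, had an adjusted p of 0.0630 and was called with DESeq2 (adjusted p = 0.0372), counts divided by 4 (edgeR adjusted p = 0.0113), a minimum of 1 FPKM, the 6 libraries alone and limma with pseudocount 0.1 or 1. The call in scMSC was lost when DNCB replicate 1, 2 or 3 or scMSC replicate 1 or 2 was left out, with adjusted p from 0.0668 to 0.0870 and log2 fold changes from -5.59 to -4.92.

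The sequences just upstream of Defb3 and Defb6 are printed because the 2 genes share most of these letters. Their levels ranked in opposite order between control and DNCB skin, although the rise of Defb3 was not called in the main fit. In both MSC groups both genes lay below all controls. Defb46, Defb5 and the pseudogene Gm15357 lie between them in GENCODE M21 and are not in the deposited table. RefSeq promoters (GRCm38.p6, 250 bases before the start) were found for 7 of the 10 genes, and not for Defb1, Defb4 and Defb14. In Defb3 and Defb6, 192 of 235 aligned bases were identical (81.7%), and the other pairs among the 7 were 51.0% to 65.6% identical. The stretches are chr8:19293168-19293345 for Defb3 (bases -193 to -16 from the RefSeq start) and chr8:19225298-19225477 for Defb6 (bases -180 to -1), both on the plus strand, 5′ to 3′, with capitals for bases that differ or have no partner in the other gene.
Defb3: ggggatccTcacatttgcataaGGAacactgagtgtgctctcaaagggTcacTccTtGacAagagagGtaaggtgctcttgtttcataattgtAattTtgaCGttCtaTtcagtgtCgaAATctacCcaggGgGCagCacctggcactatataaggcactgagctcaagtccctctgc
Defb6: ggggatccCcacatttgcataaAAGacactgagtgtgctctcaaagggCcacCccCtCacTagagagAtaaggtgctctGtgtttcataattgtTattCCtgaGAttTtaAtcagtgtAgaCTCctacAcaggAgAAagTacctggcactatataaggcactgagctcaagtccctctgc
Both hold the letters TATATAAG, at -46 in Defb3 and -31 in Defb6, and the octamer ATTTGCAT, at -181 and -168. On either strand these letters occur in 0.943% and 1.62% of 32544 RefSeq promoters, and both were picked after the sequences had been seen. The C/EBP-like letters TTGCNNAA, which overlap the octamer here, occur in 9.58% of promoters, once in those of Defb3, Slpi and Ltf, at 2 places in those of Defb6 and Ngp, and in neither Camp nor Lyz2. None of the 7 promoters held TGANTCA (AP-1), TTCNNNGAA (STAT) or TATAAA. A match is a description of letters and not evidence of binding.

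Defb1, a defensin that epithelia make without induction, rose in DNCB skin. Its levels were 6.12, 7.96 and 12.0 FPKM in control, 34.7, 33.0 and 33.0 in DNCB, 19.7, 22.5 and 8.97 in scMSC and 27.8, 34.2 and 16.3 in scivMSC skin. All DNCB libraries were above all control and scMSC libraries and overlapped with scivMSC. The log2 fold change of DNCB against control was 1.77 ± 0.36 (3.42-fold; adjusted p = 0.00533). Defb1 was not called in either MSC group against DNCB, at -0.94 ± 0.35 in scMSC (adjusted p = 0.116) and -0.37 ± 0.35 in scivMSC (adjusted p = 0.601), the second with an interval of 2 SE from -1.07 to 0.33.

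Defb14, the mouse counterpart of human beta-defensin 3 and a strongly microbicidal peptide, was measured at 11.7, 17.9 and 22.8 FPKM in control and 22.3, 25.6 and 49.4 in DNCB skin. It was at 7.33, 5.87 and 0.763 FPKM in scMSC and 9.78, 16.5 and 13.7 in scivMSC skin, with both MSC groups below all DNCB libraries, while control and DNCB overlapped. The log2 fold change of DNCB against control was 0.71 ± 0.61 (adjusted p = 0.443). In scMSC against DNCB, Defb14 fell by 2.76 ± 0.66 on the log2 scale (6.76-fold lower; adjusted p = 0.0198), and in scivMSC the difference was -1.27 ± 0.62 (adjusted p = 0.260). The scMSC call was lost without DNCB replicate 3 (-2.33, edgeR adjusted p = 0.0692) or scMSC replicate 2 (-3.02, edgeR adjusted p = 0.0505), and in a fit of the 6 libraries alone (adjusted p = 0.0708).

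Defb4, an inducible defensin of airway and other epithelia, was near the detection limit. Its levels were 0 in all 3 control libraries, 0, 0.649 and 0.205 FPKM in DNCB, 0.286, 1.33 and 0 in scMSC and 0.407, 0.408 and 0.230 in scivMSC skin. The DNCB group held about 8 fragments in all, and no fold against control is given because both groups are at or near the floor of 3 fragments per library. A count of 0 in these libraries does not show that the gene is silent.

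Shares of the summed beta-defensin level are given as descriptions, with no test. The summed level was 134 to 176 FPKM in control, 96.3 to 144 in DNCB, 41.4 to 120 in scMSC and 112 to 137 in scivMSC skin, so DNCB overlapped with each of the other groups. Defb6 made up 76.9% to 85.0% of the sum in control, 16.9% to 41.6% in DNCB, 73.2% to 77.1% in scMSC and 57.2% to 72.1% in scivMSC skin. Within Defb3 plus Defb6, the Defb3 share was 1.77% to 4.22% in control and 26.0% to 56.2% in DNCB, and at most 4.34% in scMSC and 1.38% in scivMSC skin. Defb1 took a mean of 5.47% of the sum in control and 28.0%, 19.2% and 21.1% in DNCB, scMSC and scivMSC. The scMSC replicate 3 library had the lowest sum of all 12, with Defb1, Defb6 and Defb14 each the lowest of its group.

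**Figure D2:**
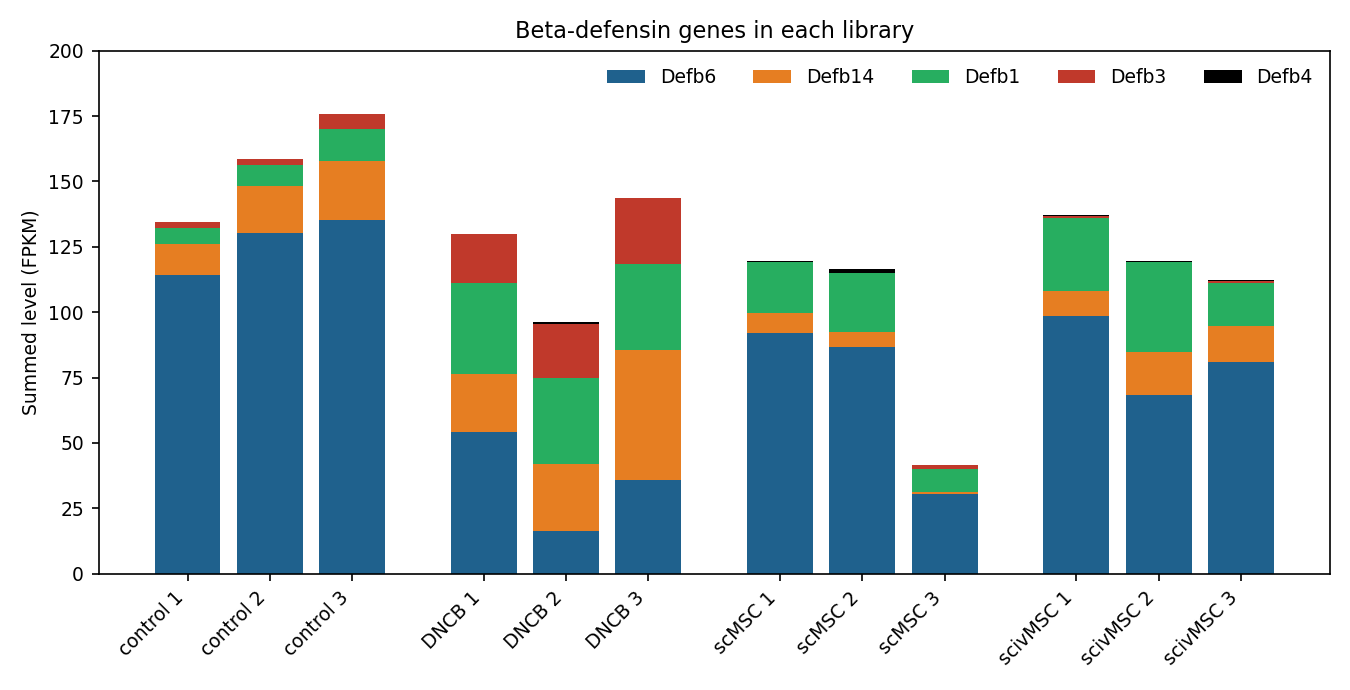
Summed FPKM of the 5 beta-defensin genes in each library (stacked bars from 0, 1 bar per library, no error). Defb6 is the largest part in all control, scMSC and scivMSC libraries, while in the DNCB libraries it is 41.6% of the bar or less.

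The granule proteins Camp, Ltf and Ngp were scarce in all groups and highest in DNCB. These genes lie on chromosome 9 (Camp, chr9:109847379-109849617, minus strand; Ngp, chr9:110419747-110423012, and Ltf, chr9:111019271-111042767, both plus strand). Their summed level was 0.156 to 0.480 FPKM in control, 3.57 to 10.1 in DNCB, 0.103 to 0.282 in scMSC and 0.287 to 1.69 in scivMSC skin, where the top value was scivMSC replicate 2. The part of neutrophil number in these levels was not tested. The sum of the neutrophil markers was highest in DNCB too. Within scivMSC the libraries ranked alike in the granule sum and the marker sum, but within control, DNCB and scMSC they did not.

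Ngp, neutrophilic granule protein, was the most abundant of them in DNCB skin. It was at 0.339, 0.114 and 0 FPKM in control, 7.56, 4.52 and 2.51 in DNCB, 0, 0.0763 and 0 in scMSC and 0.182, 1.42 and 0.400 in scivMSC skin. The DNCB libraries were above the other 9. Ngp rose in DNCB against control by 4.76 ± 1.35 on the log2 scale (adjusted p = 0.0247) and fell by 7.37 ± 1.58 in scMSC against DNCB (adjusted p = 0.0123). The scMSC group held about 2 fragments against 350 in DNCB, a ratio of 178 with a 95% exact counting interval of 49.0 to 1479. In scivMSC against DNCB the log2 fold change was -2.86 ± 1.21 (adjusted p = 0.187), called in limma with pseudocount 0.1 or 1. The DNCB call was lost without control replicate 2 (4.58, edgeR adjusted p = 0.0806), DNCB replicate 1 (4.30, edgeR adjusted p = 0.0755) or DNCB replicate 2 (4.81, edgeR adjusted p = 0.0523).

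Ltf encodes lactoferrin, which binds iron and withholds it from microbes. It was at 0.0228, 0 and 0.0156 FPKM in control, 0.773, 0.344 and 0.303 in DNCB, 0.0798, 0.0270 and 0 in scMSC and 0.105, 0.0871 and 0.0284 in scivMSC skin. Again no DNCB library overlapped with another group. Ltf rose in DNCB by 4.93 ± 1.32 on the log2 scale (adjusted p = 0.0191), and about 97 fragments against 2 gave a ratio of 44.0 (95% exact counting interval 11.9 to 369). The log2 fold changes against DNCB were -3.69 ± 1.21 in scMSC (adjusted p = 0.0736) and -2.62 ± 1.15 in scivMSC (adjusted p = 0.202). The scMSC difference was called with DESeq2 (adjusted p = 0.00580), counts divided by 4 (edgeR adjusted p = 0.0187) and limma with pseudocount 0.1 or 0.01, and the scivMSC difference in limma with pseudocount 0.1. Without control replicate 3 the DNCB call was lost (5.02, edgeR adjusted p = 0.0549), without DNCB replicate 1 Ltf averaged under 0.1 FPKM and was not tested, and in limma with pseudocount 1 its log2 fold change was 0.53, under the fold a call needs.

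Camp encodes the cathelicidin precursor. It was at 0.118, 0.201 and 0.140 FPKM in control, 1.76, 1.08 and 0.758 in DNCB, 0.203, 0 and 0.219 in scMSC and 0, 0.182 and 0.0849 in scivMSC skin. The DNCB libraries again lay above all others, although no comparison of Camp was called in this fit. The log2 fold changes were 2.67 ± 1.23 for DNCB against control (adjusted p = 0.139), -3.03 ± 1.24 for scMSC against DNCB (adjusted p = 0.150) and -3.63 ± 1.28 for scivMSC against DNCB (adjusted p = 0.114). With counts divided by 4 all 3 were called (edgeR adjusted p = 0.0459, 0.0443 and 0.0310), as they were in limma with pseudocount 0.1. By counting error alone the DNCB level was 7.00 times that of control (95% exact interval 3.18 to 18.2, about 54 fragments against 7). Such intervals cover counting error only and not the spread between mice.

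Lyz2, the lysozyme of macrophages and neutrophils on chromosome 10 (chr10:117277331-117282321, minus strand), was the most abundant of the 10 genes in DNCB skin. It was at 106, 115 and 414 FPKM in control, 452, 464 and 424 in DNCB, 201, 90.4 and 87.1 in scMSC and 167, 227 and 22.6 in scivMSC skin. All DNCB libraries were above all others, by a small margin over control replicate 3, which also had the highest macrophage sum of the controls (503 FPKM against 143 and 159). The lowest Lyz2 of all libraries was in scivMSC replicate 3, where the macrophage sum was lowest as well (71.3 FPKM). Within control and within scivMSC the libraries ranked alike in Lyz2 and in the macrophage sum, but within DNCB and within scMSC they did not. The log2 fold change was 0.93 ± 0.70 for DNCB against control (adjusted p = 0.372), -1.82 ± 0.71 for scMSC against DNCB (adjusted p = 0.133) and -1.71 ± 0.71 for scivMSC against DNCB (adjusted p = 0.178), none of them called. The scMSC difference was called with DESeq2 (adjusted p = 0.0298), in a fit of the 6 libraries alone (edgeR adjusted p = 0.0172) and without scivMSC replicate 3 (edgeR adjusted p = 0.0371). Of the 50-base stretches of Lyz2, 15.4% occur in Lyz1 as well, and Lyz1 was at 40.6 FPKM in control replicate 3 and at 1.06 to 11.8 FPKM in the other libraries.

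Slpi, on the minus strand of chromosome 2 (chr2:164354070-164356507; its gene model overlaps Mir7678), was the member with the smallest adjusted p in DNCB against control and the only member called in both MSC comparisons. It was at 2.10, 1.10 and 1.46 FPKM in control, 51.9, 42.8 and 52.3 in DNCB, 2.81, 4.58 and 1.01 in scMSC and 4.45, 14.9 and 3.18 in scivMSC skin. The DNCB libraries stood well above the other 9, control and scMSC overlapped, and scivMSC lay above all controls. Slpi rose in DNCB by 4.78 ± 0.69 on the log2 scale (27.5-fold; adjusted p = 0.00119). In scMSC against DNCB it fell by 4.08 ± 0.66 (16.9-fold lower; adjusted p = 0.00379), and in scivMSC against DNCB it fell by 2.72 ± 0.62 (6.58-fold lower; adjusted p = 0.0251). The scivMSC call was lost when any 1 of the DNCB libraries, or scivMSC replicate 1 or 3, was left out, with adjusted p from 0.0643 to 0.0981. Of the proteases SLPI inhibits, Elane was at 0 to 0.306 FPKM and Ctsg at 0 to 0.451 FPKM in all libraries, and neither reached 0.1 FPKM in the mean. In scivMSC replicate 2 the stress keratinocyte sum was 4882 FPKM, and 1203 and 1284 in the other two libraries of its group.

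**Figure D3:**
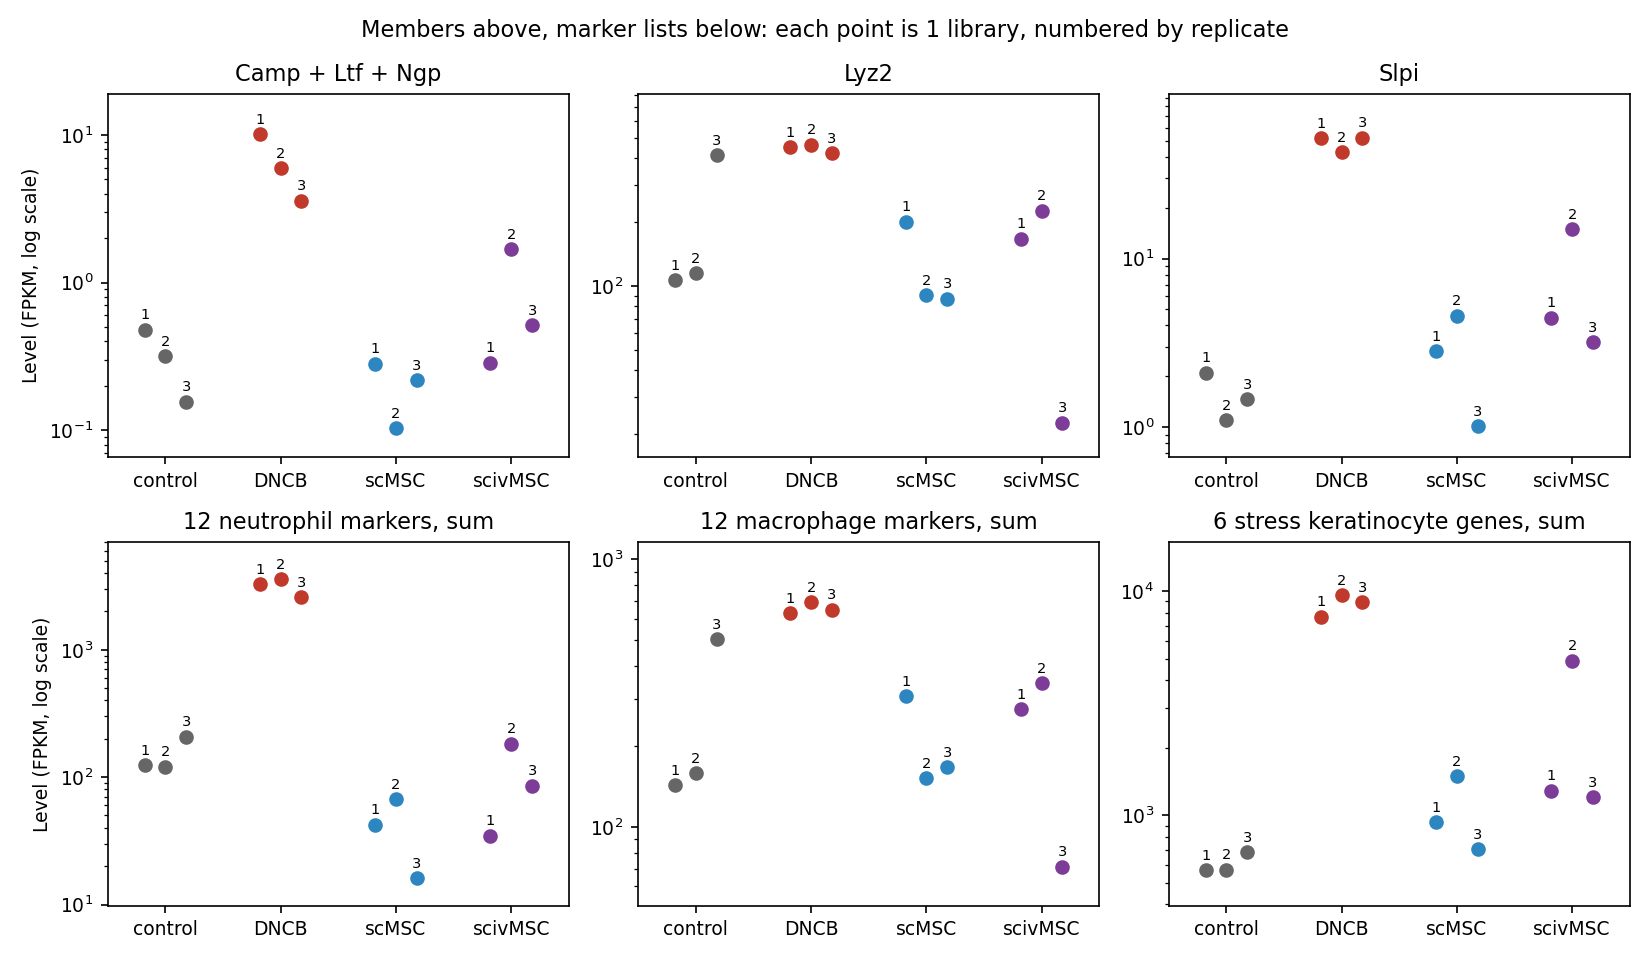
FPKM on a log axis in each library (1 point per library, numbered by replicate, no error) for Camp, Ltf and Ngp summed, Lyz2 and Slpi in the upper row, and for the summed neutrophil, macrophage and stress keratinocyte lists in the lower row. Control replicate 3 was high and scivMSC replicate 3 low for both Lyz2 and the macrophage list, and scivMSC replicate 2 was the highest of its group for Slpi and the stress keratinocyte list (4882 FPKM). S100a8 and S100a9 make up most of the neutrophil sum in each library.

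The comparison of each MSC group with DNCB asked whether the injected cells altered these genes in sensitized skin. Both comparisons share the 3 DNCB libraries, which DNCB against control uses too, so the directions are not independent. In scMSC, 4 of 10 members were called, all lower (Defb3, Defb14, Ngp and Slpi), where 8.5% of all genes were called and 3.84% were called lower. Without DNCB replicate 3 or scMSC replicate 2 that number was 2, with 1404 and 1223 of all genes called in place of 1861. In scivMSC only Slpi was called, 1 of 10, where 5.46% of all genes were called and 2.33% were called lower. The number was 0 without any 1 of the DNCB libraries or without scivMSC replicate 1 or 3. In those fits 477 to 647 of all genes were called, in place of 1195. Without any 1 of the scMSC libraries the members called were 2, with Defb3 the gene added, and 1138 to 1223 of all genes were called. The libraries of the 2 groups did not overlap for 8 members in scMSC against DNCB, all lower, and for 33.1% of all genes (17.1% lower). For scivMSC they did not overlap for 7 members that were lower and 1, Defb6, that was higher, beside 32.7% of all genes (16.3% lower and 16.4% higher). In DNCB against control they did not overlap for 7 higher and 1 lower, beside 47.7% of all genes (31.7% higher and 16.1% lower). The median log2 fold change was -0.94 for the beta-defensins and -3.36 for the granule proteins in scMSC, and -0.37 and -2.74 in scivMSC, beside 0.02 over all genes tested in each comparison. For the 4 beta-defensins without Defb4, which was near the detection limit, the median was -1.85 in scMSC and -0.82 in scivMSC.

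**Figure D4:**
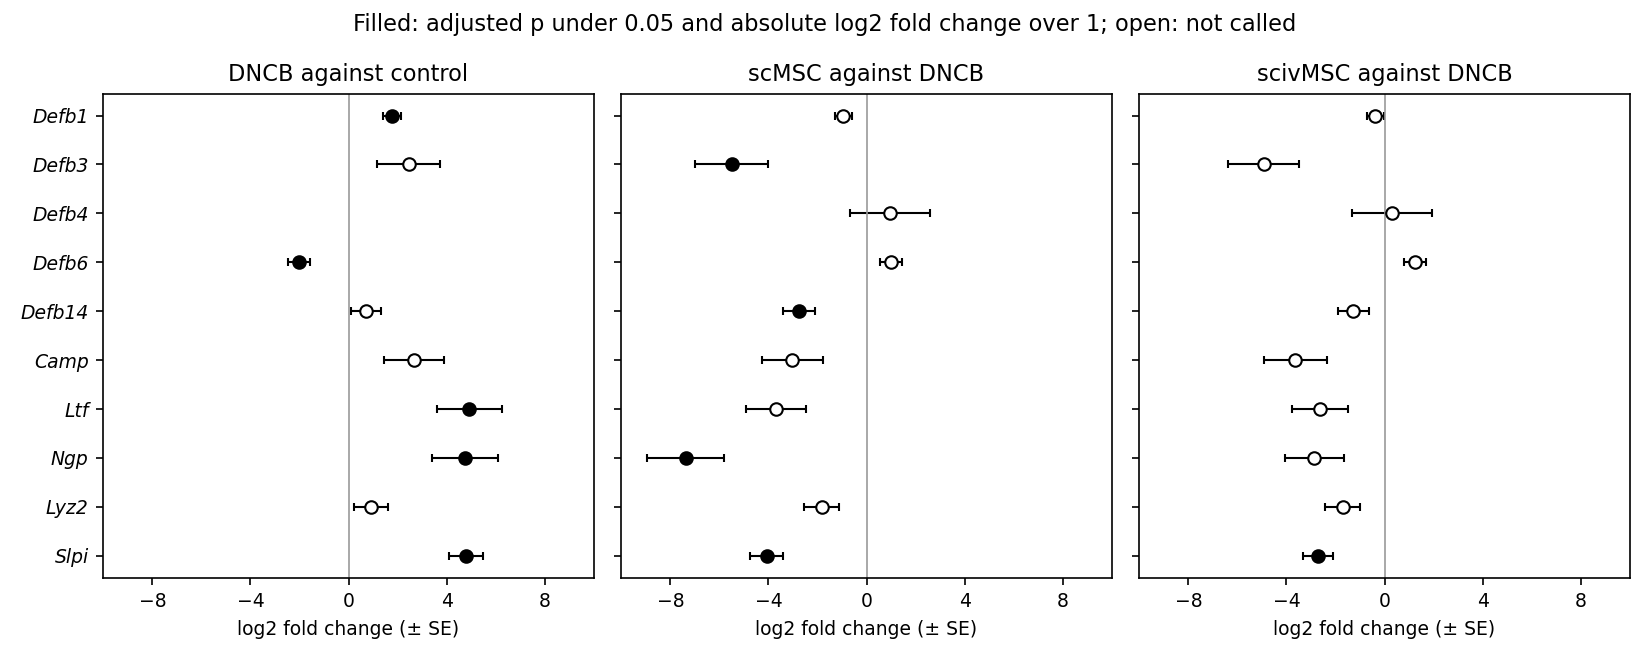
Log2 fold change of the 10 genes in 3 comparisons (points, with bars of 1 SE; filled points were called). Defb4 is left out of the first panel because it was at 0 in all controls. Defb6 was the member that was lower in DNCB than in control, and Slpi was called in all 3 panels.

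Set against control, 1 member was called in each MSC group. Defb14 was lower in scMSC by the test (-2.04 ± 0.64 on the log2 scale; adjusted p = 0.0486), where 9.32% of all genes were called and 4.2% were called lower. This call was lost in every fit that left out 1 library except those without scMSC replicate 1 or 3, at adjusted p from 0.0554 to 0.105. Defb1 was higher in scivMSC (1.41 ± 0.36; adjusted p = 0.0272), where 6.85% of all genes were called and 3.5% were called higher. This call was lost without control replicate 1 or 2 or scivMSC replicate 1 or 2, at adjusted p from 0.0741 to 0.12. Slpi in scivMSC against control, 2.06 ± 0.62 on the log2 scale, had an adjusted p of 0.0502 and was called with DESeq2 (adjusted p = 0.00466), counts divided by 4 (edgeR adjusted p = 0.0436) and library size alone (edgeR adjusted p = 0.0302). Between the routes, scivMSC against scMSC, edgeR called 0 of 10 members and DESeq2 called 0, with 3 members at an unadjusted p under 0.05 and a smallest adjusted p of 0.575 in edgeR. In that comparison 0.00457% of all genes were called.

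Genes whose profile over the 12 libraries was most like that of a member were found by the root mean square difference of log2 CPM (counts scaled to library size), each centred on its mean, among genes of at least 1 FPKM. For Slpi they were the stress keratin Krt6a (0.41), Ptgs2 (0.49) and Tnc (0.53). Lyz2 was nearest to Ptafr (0.22), Gm21188 (0.23) and the complement gene C1qb (0.23), a macrophage product. Defb1 was nearest to Crabp2 (0.22) and Defb6 to Slc6a14 (0.29). For Ngp and Defb3 the smallest differences were 1.21 to Krt6b and 1.42 to Sprr2b. Both hold zeros, as do Camp, Ltf and Defb4. Their own spread about the mean, by the same measure, was 2.86 and 2.85, beside 1.66 for Camp and 1.64 for Defb4. The differences therefore do not rank the members by closeness of match. For Ltf the nearest was Hdc (0.65), for Defb14 Tmigd1 (0.56), for Camp Ccl7 (0.80) and for Defb4 Gm12346 (1.01). These are descriptions over shared libraries.

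Other epithelial antimicrobial genes were read from a list of 22, of which 19 were in the table and tested; the list also holds the member Ltf, and S100a8 and S100a9 of the neutrophil markers. In DNCB against control 9 rose, 1 fell and 9 were not called, with a median log2 fold change of 1.16. Among those that rose, Ltf and Reg3g (named after its values were seen) passed the minimum for testing only through DNCB. Without control replicate 1 the number that rose was 5. S100a8 and S100a9, the subunits of the metal-binding calprotectin, rose by 3.98 ± 0.60 and 4.20 ± 0.74 on the log2 scale (adjusted p = 0.00142 and 0.00265). Lcn2, lipocalin that captures bacterial siderophores, rose by 2.45 ± 0.27 (adjusted p = 0.000513), and Wfdc12, a relative of Slpi with the same kind of domain, by 3.12 ± 0.68 (adjusted p = 0.00742). The gene that fell was Wfdc21, named after its values were seen, another protein of that domain family. It was at 86.8 to 128 FPKM in control, 46.5 to 49.7 in DNCB, 69.1 to 178 in scMSC and 111 to 190 in scivMSC skin, and in DNCB it fell by 1.32 ± 0.29 on the log2 scale (adjusted p = 0.00776).

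In each MSC group against DNCB, 2 of the 19 rose and 4 fell. Those that fell in both were S100a8, S100a9, Lcn2 and Nos2, which makes nitric oxide (Nos2 named after its values were seen). Among the 2 that rose, Wfdc21 rose in both groups (1.33 ± 0.29 in scMSC, adjusted p = 0.0136; 1.62 ± 0.29 in scivMSC, adjusted p = 0.0102). The other gene that rose was S100a7a, a psoriasin relative in keratinocytes, also named after its values were seen. It was at 0.887 to 1.26 FPKM in control, 3.55 to 6.03 in DNCB, 29.9 to 97.5 in scMSC and 10.6 to 22.9 in scivMSC skin, with no overlap between neighbouring groups. Its log2 fold change was 1.92 ± 0.49 in DNCB against control (adjusted p = 0.0162), 3.58 ± 0.51 in scMSC against DNCB (adjusted p = 0.00239) and 1.77 ± 0.48 in scivMSC against DNCB (adjusted p = 0.0465). The first of these calls was lost without control replicate 1 or 3 or DNCB replicate 3 (adjusted p from 0.0549 to 0.0683) and the third in every fit that left out 1 library except those of the scMSC group and scivMSC replicate 2 (adjusted p from 0.0631 to 0.154). The scMSC call of Wfdc21 was lost without DNCB replicate 1 or 3 (adjusted p = 0.0524 and 0.0506).

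**Figure D5:**
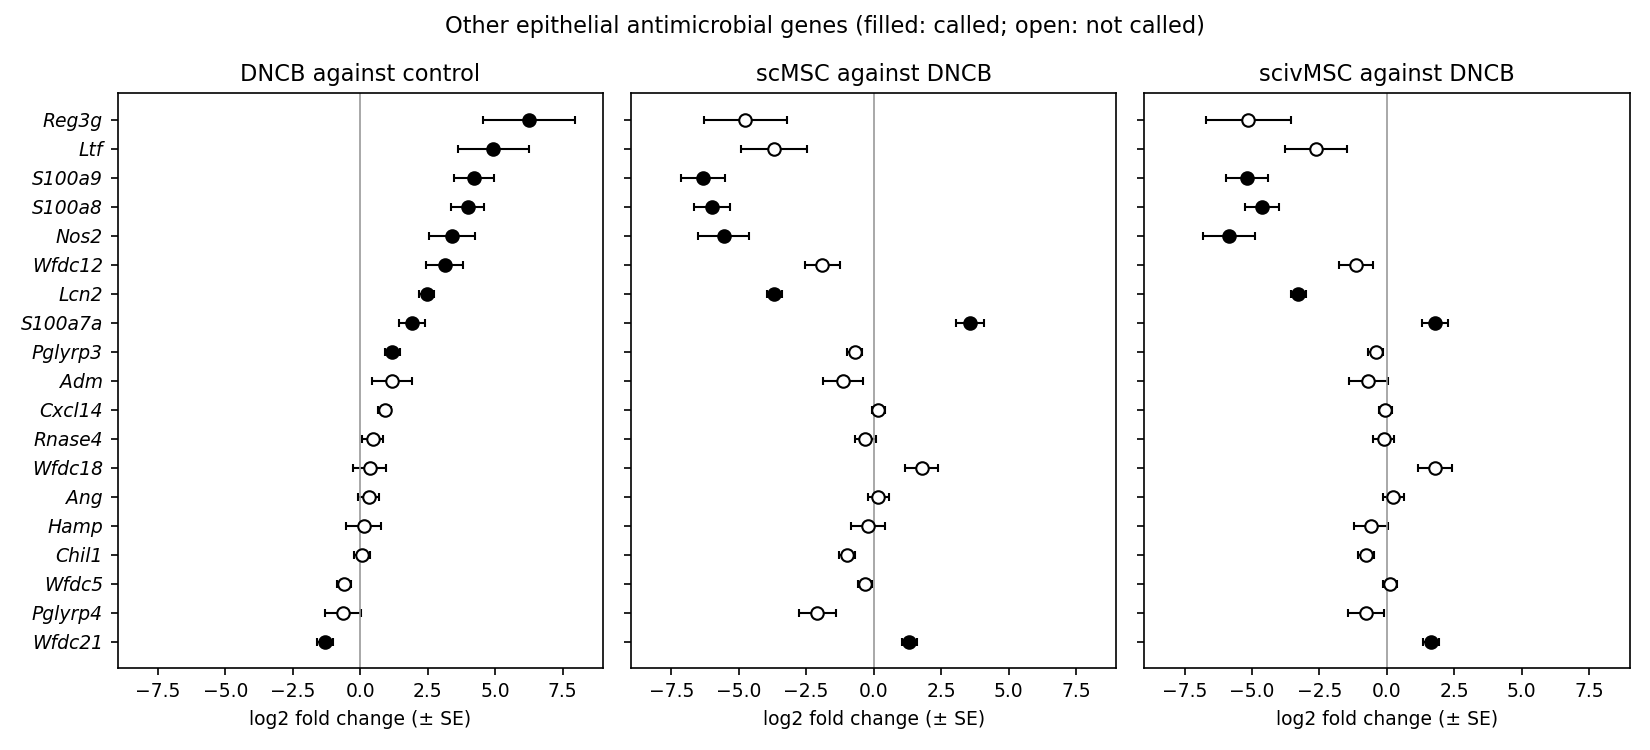
Log2 fold change of the 19 other epithelial antimicrobial genes tested, in 3 comparisons (points, with bars of 1 SE; filled points were called), ordered by the first panel. S100a8, S100a9, Lcn2 and Nos2 are to the right in DNCB against control and to the left in both MSC panels, while S100a7a is to the right in all 3.

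Of 20 other neutrophil granule genes tested, 12 rose and 1 fell in DNCB skin. Mmp8, Cd177 and Olfm4, the last named after its values were seen, passed the minimum for testing only through DNCB, where they were high. Against DNCB, 15 of the 20 fell in scMSC and 8 in scivMSC. The list shares Lcn2 and Chil1 with the epithelial antimicrobial genes, Mmp8 and Cd177 with the neutrophil markers and Prtn3 with the receptors and proteases. Without these 5, left out after the values were seen, 9 rose and 1 fell of 15 in DNCB, and 12 fell in scMSC and 5 in scivMSC. Leaving out 1 library gave 6 to 15 in scMSC, with 8 or fewer without any 1 of the DNCB libraries or scMSC replicate 2 or 3, and 3 to 9 in scivMSC, with 5 or fewer without any 1 of the DNCB libraries or scivMSC replicate 1 or 3. The secondary and tertiary granule proteases Mmp8 and Mmp9 rose in DNCB by 8.10 ± 1.69 and 4.44 ± 0.56 on the log2 scale (adjusted p = 0.00590 and 0.000768). The gene called lower was Mpo, the myeloperoxidase of primary granules, at 0.250 to 1.04 FPKM in control and 0.0965 to 0.151 in DNCB (adjusted p = 0.0300). That call was lost without control replicate 3 or any 1 of the DNCB libraries (adjusted p from 0.0661 to 0.0983) and in limma. Among 11 regulators of granule genes, 3 rose in DNCB and 3 fell in each MSC group, or 1 in scivMSC without any 1 of the DNCB libraries. Csf3, the growth factor of neutrophils, rose by 5.99 ± 1.25 (adjusted p = 0.00588) and its receptor Csf3r, also a neutrophil marker, by 4.02 ± 0.62 (adjusted p = 0.00153). Cebpe, the factor that switches on secondary granule genes in precursors, stayed at 0 to 0.658 FPKM with a log2 fold change of 0.51 ± 1.00 in DNCB (adjusted p = 0.759).

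Inducers of defensins and their receptors (25 genes, 23 tested) held 6 genes that rose in DNCB skin, 6 that fell in scMSC and 3 that fell in scivMSC against DNCB, and none of the 23 was called the other way. Il1b rose by 5.21 ± 1.14 and Tnf by 5.12 ± 0.78 on the log2 scale (adjusted p = 0.00757 and 0.00146), and the microbial sensor Tlr2 by 2.03 ± 0.27 (adjusted p = 0.000917). Il17a and Il22, known inducers of skin beta-defensins, were at no more than 0.445 and 0.0910 FPKM in any library. Of 15 receptors and processing proteases of these peptides, 13 were tested, 3 rose in DNCB, and 2 and 1 fell in scMSC and scivMSC. Leaving out 1 library gave 1 to 4 in scMSC (1 without any 1 of the DNCB libraries or scMSC replicate 3, 4 without control replicate 3) and 1 to 2 in scivMSC (2 without control replicate 3 or scivMSC replicate 2). They include Fpr2, a receptor for the cathelicidin peptide, which rose by 4.89 ± 0.82 (adjusted p = 0.00212), and Klk6, a kallikrein of the epidermis, which rose by 2.78 ± 0.58 (adjusted p = 0.00579). Klk5, the kallikrein that cleaves the cathelicidin precursor, had a log2 fold change of -0.62 ± 0.29 (adjusted p = 0.142).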

How the data were processed

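The 12 libraries hold dorsal skin RNA of 4 groups with 3 mice each. The authors deposited 1 table with whole-number estimated counts, not scaled between libraries, and FPKM, which they had scaled for transcript length and library size. The submitters' processing notes name Bowtie 0.12.2, HISAT2 2.0, StringTie 1.3.0 and mm8, but gene coordinates in the table fit GRCm38, so positions are from GENCODE M21. The counting step and its use of strand are not given in the sources used here. Of the 36400 gene identifiers, 36287 are in M21. Small counts clustered on multiples of 4 (38.9% to 41.2% of counts up to 18), so 1 fragment was read as about 4 estimated counts, with a floor of 3 fragments per library. Exact intervals are at 95%.

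Genes averaging at least 0.1 FPKM, 21890 in all, were tested with edgeR 4.0.16 (TMM factors 0.887 to 1.06, common biological coefficient of variation 0.420). Counts were used as whole numbers. The SE was derived from the F statistic. The alternatives were DESeq2 1.42.0, limma 3.58.1 on log2(FPKM + 0.1, 1 or 0.01), other filters and scalings, counts divided by 4, a replicate block, the 6 libraries of a comparison alone and leaving out each library. The steps were tested on simulated data. The members, gene lists and tests were chosen with earlier results of these data known. Named list genes are defining markers and, per list, up to 4 of those called in DNCB against control at 1 FPKM or more with the greatest fold change; others are marked. Replicates are separate mice.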

Additional observations from a re-analysis of the deposited data

How the results depend on the processing

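Apart from Defb4, no member value given in the report changed direction under any alternative run. Defb4, near the detection limit, is in the plot of log2 fold changes for both MSC groups against DNCB. Its direction there depended on which library was left out. The log2 fold change of Defb4 then ran from -1.04 to 2.38 in scMSC and from -0.271 to 1.72 in scivMSC against DNCB. In DNCB against control 5 members were called, 4 in scMSC against DNCB, and 1 in each other comparison except scivMSC against scMSC, which had 0. In DNCB against control DESeq2 and limma with pseudocount 0.1 called 6, counts divided by 4 and the 6 libraries alone 7, and a minimum of 1 FPKM, which left 7 members tested, 4. Over all genes these fits called 3738, 3576, 3227, 3257 and 2556 (of 14386 tested) in that order, in place of 3098. DESeq2 called 7 in scMSC against DNCB, 4 in scivMSC against DNCB, 2 in scMSC against control and 3 in scivMSC against control. Over all genes it called 2483, 1867, 2656 and 2076 in these comparisons, in place of 1861, 1195, 2040 and 1500. In scivMSC against DNCB, limma with pseudocount 0.1 called 5, limma with pseudocount 1 and counts divided by 4 each called 3, and a minimum of 1 FPKM and the 6 libraries alone each called 2. Over all genes these fits called 1415, 999, 1374, 1089 and 1116 in that order. In scMSC against control, limma with pseudocount 0.1 or 1 called 2, while library size alone, no filter, the 6 libraries alone and the replicate block called 0. All genes called were 2381 and 1300 in limma, and 2147, 1847, 1516 and 1835 in the others in that order. In scivMSC against control, limma with pseudocount 1 called 3, library size alone, a minimum of 1 FPKM, counts divided by 4 and limma with pseudocount 0.1 or 0.01 called 2, and the 6 libraries alone and the replicate block called 0. All genes called were 1024, then 1700, 1338, 1581, 1859 and 1876, then 787 and 1344 in that order. Leaving out 1 library gave 3 to 5 members called in DNCB against control (the 3 out of 9 tested), 2 to 5 in scMSC against DNCB, 0 to 2 in scivMSC against DNCB, 0 to 4 in scMSC against control and 0 to 2 in scivMSC against control. Over all genes those fits called 2460 to 3227, 1223 to 2012, 477 to 1443, 1357 to 2327 and 842 to 1797 in the same order. The cause of these changes was not tested. Replicate numbers do not pair the mice: deviations of same-numbered libraries correlated at -0.185 to 0.133, and 3 of 12 libraries correlated best with their own number. The replicate block left 5 members called in DNCB against control, 3 in scMSC against DNCB and 1 in scivMSC against DNCB, with 2866, 1566 and 845 of all genes called. In scMSC against DNCB limma with pseudocount 0.1 and counts divided by 4 called 6 members, with 1991 and 2024 of all genes called. Apart from leaving out a library, the fewest other neutrophil granule genes that an alternative called in scMSC against DNCB were 9 in place of 15. For their regulators in scivMSC against DNCB the fewest were 1 in place of 3. DESeq2 called 12 other epithelial antimicrobial genes in place of 6 in scMSC against DNCB, where limma with pseudocount 0.1 or 0.01 called 10, and 15 granule genes in place of 8 in scivMSC against DNCB, where limma with pseudocount 0.1 called 13 and a minimum of 1 FPKM 5. Of receptors and proteases, DESeq2 and the 6 libraries alone called 4 in place of 2 in scMSC and 2 in place of 1 in scivMSC against DNCB. Depth limits Defb4, and Camp, Ltf and Ngp outside DNCB skin, each of which held at most about 49 fragments in a group. It limits Defb3 in the MSC groups as well, with about 8 fragments in scMSC and 11 in scivMSC skin.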

Other observations

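Other defensin genes were close to the detection limit. The table holds 6 beta-defensin genes besides the 5 described, and 2 of them averaged over 0.1 FPKM, Defb25 with a highest library of 1.20 FPKM and Defb2 with 0.780. Its 3 alpha-defensin genes and pseudogenes were each above 0 in a single library. Tissue makeup moved beside the members in further ways. The 4 hair follicle markers summed to 2.30 to 155 FPKM in control, 169 to 507 in DNCB, 3581 to 10050 in scMSC and 1342 to 3272 in scivMSC skin. Of 5 T cell markers tested, 2 rose in DNCB and 1 fell in scMSC against DNCB. The CD3 chain genes Cd3e and Cd3g, named after their values were seen, were not among those that rose. They averaged 0.491 and 1.40 FPKM in control and 0.190 and 0.703 in DNCB skin, with overlapping libraries, and were not called. Of 12 keratinocyte markers, 3 rose and 2 fell in DNCB, the latter being the cornified envelope gene Lor and the basal follicle keratin Krt15. Of 6 stress keratinocyte genes all 6 rose in DNCB and 5 fell in scMSC. All 12 neutrophil markers rose in DNCB, 12 fell in scMSC and 10 in scivMSC against DNCB. They include S100a8 and S100a9, counted among the epithelial antimicrobial genes as well, and without these 2 all 10 rose in DNCB, 10 fell in scMSC and 8 in scivMSC. Ly6g, Mrgpra2b, Mmp8 and Cd177 passed the minimum for testing only through DNCB, the group where they were high, so the filter favoured their calls. Outside DNCB their group means were at most 0.112 FPKM. The part of any of these changes in tissue makeup in the values of the 10 genes was not tested.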
